A study of Mus musculus with 21 samples.

Results

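The transcripts of the metabotropic glutamate receptors were compared in the cortex of mice 24 h after high-frequency head impact (HF-HI). Of the 4 receptor genes chosen by their symbols, Grm2, Grm3, Grm5 and Grm7, 3 were tested among the 5544 genes with values, and Grm2 was not analysed here. The group III receptor gene Grm8 also had values and was used beside the members, and Grm4 and Grm6 were not analysed here. The HF-HI group held 11 libraries and the sham group 10, each made from the cortex of 1 male C57BL/6 mouse of 12 weeks. HF-HI mice received repeated daily head impacts under isoflurane, while the sham group went through the same sessions without being struck, so isoflurane exposure was common to both groups.

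Metabotropic glutamate receptors are G protein-coupled receptors that respond to the glutamate released at excitatory synapses and adjust transmission over slower times than the ion channel receptors. Group I receptors, such as that encoded by Grm5, couple to Gq and phospholipase C, sit mostly at the edge of the postsynaptic density, and are bound there by Homer and Shank scaffolds. Group II receptors, encoded by Grm2 and Grm3, and the group III receptors of cortex, encoded by Grm7 and Grm8, couple to Gi/o, lower cyclic AMP and reduce transmitter release from axon terminals. The Grm3 product is also found on astrocytes, and that of Grm7 lies in the presynaptic active zone and has a low affinity for glutamate.

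The 250 bases before the transcription start are shown for Grm3 and Grm7, one of group II and one of group III, both lower in HF-HI. Grm5, which was also lower, had no entry among the promoter sequences used, so its window is not shown. Both were taken from RefSeq on build GRCm38.p6 and are written 5′ to 3′ on the strand of the gene, with the letters of a GC box (GGGCGG) in capitals. The Grm3 window is chr5:9725353-9725602 on the minus strand, and the Grm7 window is chr6:110645262-110645511 on the plus strand, the first of 2 entries for this gene.

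Grm3: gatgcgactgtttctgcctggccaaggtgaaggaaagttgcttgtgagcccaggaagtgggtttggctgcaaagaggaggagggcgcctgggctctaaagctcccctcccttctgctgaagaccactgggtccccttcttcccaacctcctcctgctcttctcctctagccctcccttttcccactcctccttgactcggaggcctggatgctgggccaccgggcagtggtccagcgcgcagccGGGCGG

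Grm7: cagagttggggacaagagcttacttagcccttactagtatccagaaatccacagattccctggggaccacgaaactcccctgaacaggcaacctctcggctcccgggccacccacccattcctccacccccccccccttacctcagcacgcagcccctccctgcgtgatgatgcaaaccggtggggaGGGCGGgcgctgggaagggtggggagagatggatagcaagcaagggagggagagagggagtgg

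The Grm3 window had a GC content of 62.4% and the Grm7 window 62%, against a median of 52.4% over all 32851 promoter windows of the same length. Each held 1 GC box, which was found on either strand in 32.7% of all windows. Neither held the letters TGACG of a cyclic AMP response element half-site, found in 17.8% of all windows, or TATAAA, found in 12.4%. These matches describe the letters of the windows and not the binding of any factor.

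The deposited values were variance-stabilized and lie on a log2 scale that ran from 4.59 to 17.7 over all genes and libraries. The total depth was not known, and relative depth, set to 1 at the median library, ran from 0.580 to 1.26 in sham and from 0.548 to 1.64 in HF-HI. Each library's deviations from the gene means over all libraries were also fitted on exonic GC content. The slopes, relative to the other libraries, ran from -0.23 to 0.0058 log2 units per 10% GC in sham and from -0.039 to 0.16 in HF-HI. HF-HI libraries 9 and 11 were the shallowest of their group and had its lowest GC slopes, so receptor values are also given without them. Of all genes tested with limma's moderated test, 66.3% had a Benjamini-Hochberg adjusted p under 0.05 and were called, 33.6% lower and 32.6% higher in HF-HI. All genes here and below are the 5544 genes with values, which are not the whole transcriptome.

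Grm5, the main group I receptor of the forebrain, had the largest decrease of the receptor genes described here. The gene (ENSMUSG00000049583) lies on the plus strand of chromosome 7, from 87584168 to 88134907 on GRCm38. Its values in the 10 sham libraries ran from 12.07 through a median of 12.17 to 12.30, and those in the 11 HF-HI libraries from 11.55 through 11.80 to 11.99. The groups did not overlap, and 11 of 11 HF-HI libraries lay below the lowest sham library. Non-overlap in this direction was found for 4.76% of all genes, and in the higher direction for 8.71%. Grm5 fell by 0.39 on the log2 scale (95% confidence interval -0.48 to -0.29, limma adjusted p = 2.18e-07), which corresponds to a decrease of about 23.6%. RNA came from whole cortical tissue, in which fewer cells of a type and less RNA per cell cannot be told apart. This was the decrease ranked 69 among all genes, and it was larger than the median of the genes called lower, -0.19. Grm5 varied more among HF-HI mice, with an SD of 0.133, than among sham mice, with an SD of 0.0706, and a test of the spread was not made.

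The exons of Grm5 have a GC content of 42.3%, under the median of 47.6% for all genes, and the GC slopes of the libraries moved with the groups. Their part in the result was measured only by removing the trend. After removal of the GC trend of each library, Grm5 still ranged from 12.06 to 12.25 in sham and from 11.60 to 11.99 in HF-HI, without overlap. The difference was then -0.30 (limma adjusted p = 3.10e-06). With relative depth as a covariate it was -0.39, and without HF-HI libraries 9 and 11 it was -0.41.

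**Figure D1:**
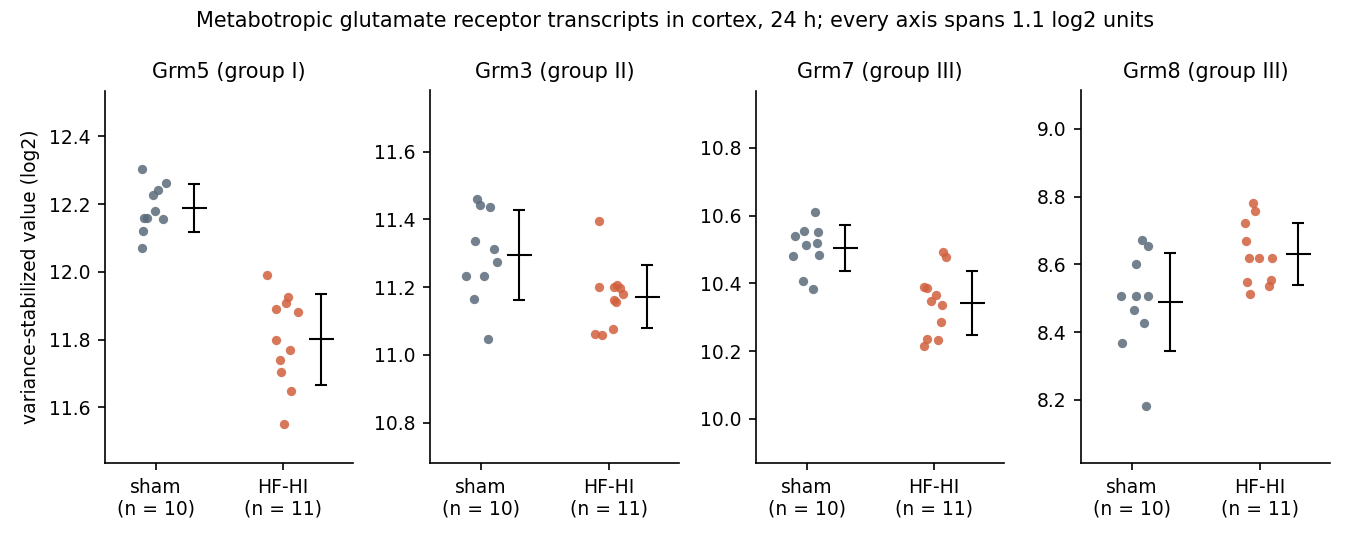
Variance-stabilized log2 values of the 4 receptor genes (vertical axes, each spanning the same number of log2 units) in 10 sham and 11 HF-HI libraries (horizontal axes). Each point is a library, and the bars are the mean with 1 SD. Grm5 separates the groups without overlap, Grm7 and Grm3 are lower in HF-HI with overlap, and Grm8 sits slightly higher in HF-HI.

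Grm3, the group II receptor gene that was tested, was lower in HF-HI by a small margin. It lies on the minus strand of chromosome 5, from 9485541 to 9725170 (ENSMUSG00000003974). Sham values ran from 11.05 through a median of 11.29 to 11.46, and HF-HI values from 11.06 through 11.18 to 11.40. The ranges overlapped almost fully, since no HF-HI library was below the lowest sham library, although 10 of 11 were below the sham median. Grm3 fell by 0.12 (95% confidence interval -0.22 to -0.022, limma adjusted p = 0.0292), a decrease of about 8.11%.

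The Grm3 call depended on the depth covariate and on single libraries. With relative depth as a covariate the difference was -0.084 (limma adjusted p = 0.124), and it was not called. It was not called either when any 1 of 6 libraries was left out, which were sham libraries 6, 7 and 10 and HF-HI libraries 1, 5 and 6, with limma adjusted p between 0.0511 and 0.0609. Removal of the GC trend left -0.13 (limma adjusted p = 0.0300). Without HF-HI libraries 9 and 11 the difference was -0.15 (limma adjusted p = 0.00954), and HF-HI library 9 had the highest Grm3 value of its group. The part of depth in the result was not tested further.

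Grm7, a presynaptic group III receptor gene, was lower in HF-HI by a similar amount. It lies on the plus strand of chromosome 6, from 110645581 to 111567230 (ENSMUSG00000056755). Sham values ran from 10.38 through a median of 10.52 to 10.61 and HF-HI values from 10.21 through 10.35 to 10.49. The groups overlapped in part, with 7 of 11 HF-HI libraries below the lowest sham library and 11 of 11 below the sham median. Grm7 fell by 0.16 (95% confidence interval -0.24 to -0.086, limma adjusted p = 5.98e-04), about 10.7%. The difference was -0.12 after removal of the GC trend (limma adjusted p = 0.0103), -0.14 with relative depth as a covariate and -0.17 without HF-HI libraries 9 and 11, and it was called in each of these 3 fits.

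Grm8, the other group III receptor gene tested, went the opposite way. It lies on the minus strand of chromosome 6, from 27275119 to 28135178 (ENSMUSG00000024211). It was the least abundant of the 4 genes, with a mean value above that of only 2.98% of the 5544 genes with values. Its values ran from 8.18 through a median of 8.51 to 8.67 in sham and from 8.51 through 8.62 to 8.78 in HF-HI. All 11 HF-HI libraries were above the sham median, and 3 were above the highest sham library. Grm8 rose by 0.14 (95% confidence interval 0.035 to 0.25, limma adjusted p = 0.0185), about 10.3%, and by 0.19 after removal of the GC trend. It was not called when libraries were centred on their medians, at 0.090 (limma adjusted p = 0.127), or quantile normalized, at 0.069 (limma adjusted p = 0.230).

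The members were chosen with earlier results of these data known, and Grm8, which was not a member, was called higher. Of the 3 members tested, 3 were called lower, against the 33.6% of all genes called lower. After removal of the GC trend the count was again 3, where 60.2% of all genes were called, 31% lower and 29.2% higher. Centring moved the median difference of all genes by 0.052 and raised the share of genes called lower to 42.9%, with 26.1% higher, and the same 3 members were called lower at -0.44 for Grm5, -0.21 for Grm7 and -0.17 for Grm3. Quantile normalization gave 40.4% lower and 27.9% higher, with differences of -0.41 for Grm5, -0.18 for Grm7 and -0.14 for Grm3. With relative depth as a covariate 33.4% of all genes were lower and 2 of the 3 members were called. Without HF-HI libraries 9 and 11 the share was 34.9% and 3 members were called.

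**Figure D2:**
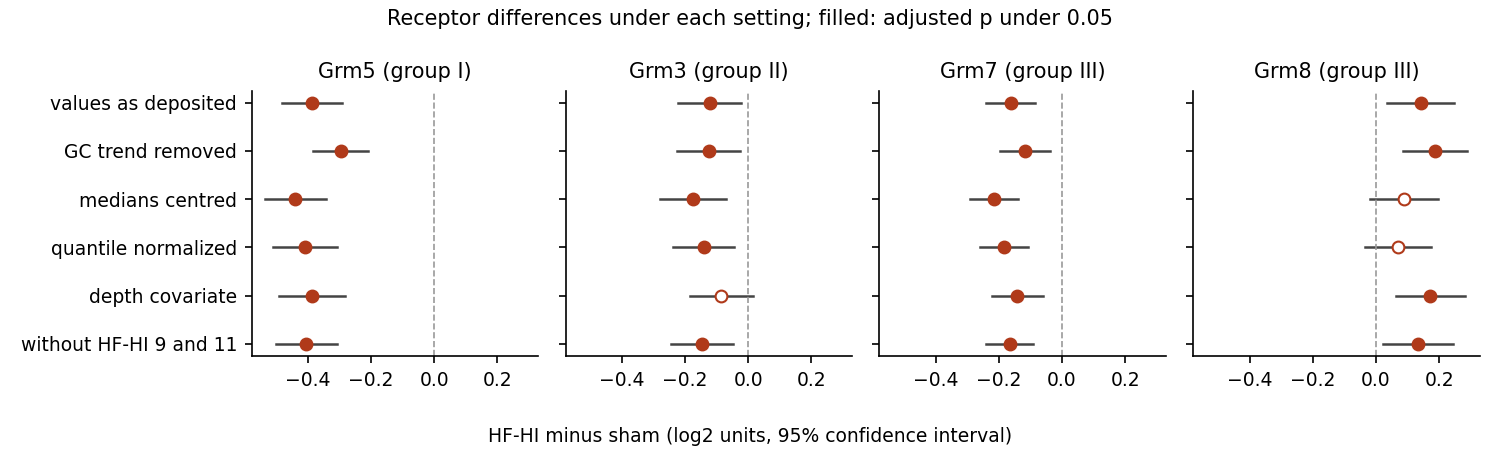
Difference between HF-HI and sham in log2 units (horizontal axes, points) with its 95% confidence interval (lines) for the 4 receptor genes under each setting (vertical axis). Filled points have a limma adjusted p under 0.05. Grm5 and Grm7 stay below zero and called in every setting drawn, Grm3 loses its call, among the settings drawn, with the depth covariate, and Grm8 loses its call under both scalings.

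The balance of receptor transcripts within each library was described by log2 ratios, which on exact log2 counts cancel any factor that scales a whole library. The values were variance-stabilized, so this holds only approximately, and least for a low gene such as Grm8. The values were not divided by exon length here, so the level of a ratio includes the difference in length between the genes and its shift between groups does not. The log2 ratio of Grm5 to the mean of Grm3 and Grm7 was 1.29 ± 0.101 (SD, n = 10) in the sham group and 1.04 ± 0.126 (SD, n = 11) in the HF-HI group. These ratios ran from 1.12 to 1.48 in sham and from 0.83 to 1.18 in HF-HI, and 7 of 11 HF-HI libraries were below the lowest sham library. The mean shift of this ratio, with Grm5 for group I and only Grm3 and Grm7 for groups II and III, was -0.25. After removal of the GC trend it was -0.17. Against Grm3 alone the Grm5 ratio shifted by -0.27 and against Grm7 alone by -0.22. The ratio of Grm3 to Grm7 shifted by 0.041, less than its SD of 0.134 in sham and 0.156 in HF-HI, and by -0.0082 after removal of the GC trend.

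Within group III, the ratio of Grm7 to Grm8 was 2.02 ± 0.166 (SD, n = 10) in the sham group and 1.71 ± 0.146 (SD, n = 11) in the HF-HI group. Its shift was -0.30 with or without the GC trend, since the exons of both genes have a GC content of 44.9%, and 8 of 11 HF-HI libraries lay below the lowest sham library. With Grm8 included, the log2 ratio of Grm5 to the mean of Grm3, Grm7 and Grm8 was 2.09 ± 0.113 in sham and 1.75 ± 0.149 in HF-HI, a shift of -0.34, and of -0.28 after removal of the GC trend. No test was made of these ratios.

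**Figure D3:**
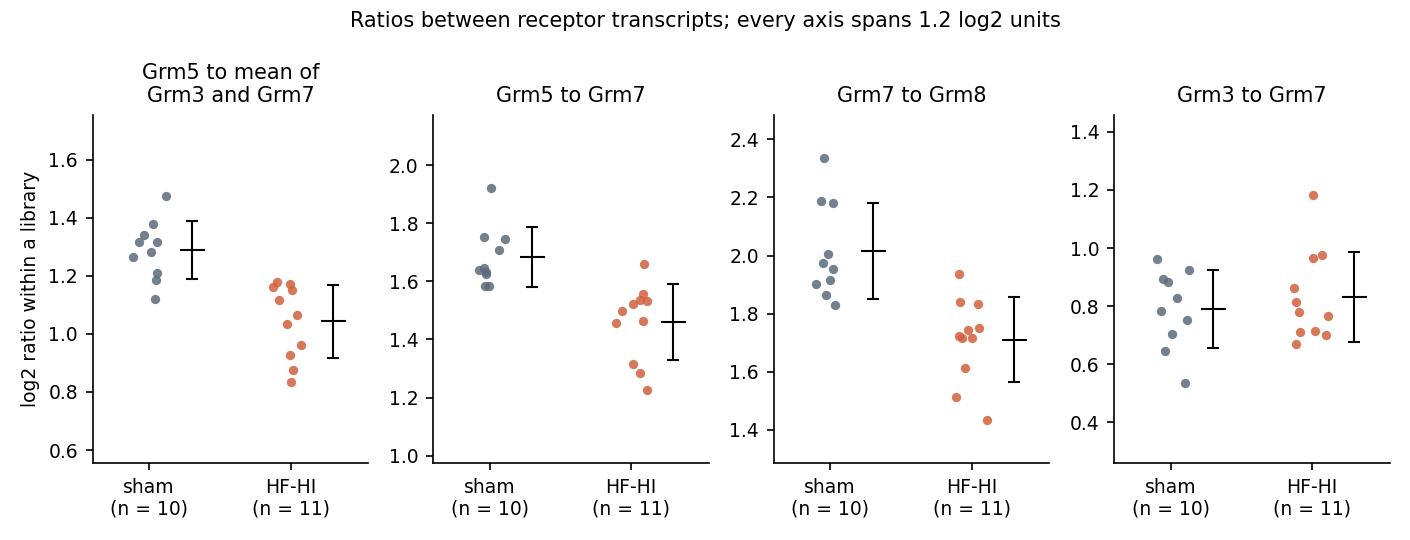
Log2 ratios between receptor transcripts within a library (vertical axes, each spanning the same number of log2 units) in 10 sham and 11 HF-HI libraries (horizontal axes). Points are libraries, and bars are the mean with 1 SD. The ratios of Grm5 to the mean of Grm3 and Grm7, of Grm5 to Grm7 and of Grm7 to Grm8 are shifted down in HF-HI with overlap, and the ratio of Grm3 to Grm7 overlaps throughout.

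Levels were compared between genes per kb of exon, on the log2 scale. In sham Grm3 stood highest at 9.69 ± 0.132 (SD, n = 10), followed by Grm5 at 8.83 ± 0.0706, Grm7 at 7.95 ± 0.0688 and Grm8 at 5.18 ± 0.144. The order was the same in HF-HI, with 9.56 for Grm3, 8.44 for Grm5, 7.78 for Grm7 and 5.32 for Grm8, and no neighbours in this order overlapped in either group. As a share of the summed level per kb of the 4 genes, Grm5 took 29.2% ± 1.67 (SD, n = 10) in the sham group and 25.5% ± 1.90 (SD, n = 11) in the HF-HI group. Grm3 took 52.7% ± 2.11 in sham and 55.4% ± 2.33 in HF-HI, with 11 of 11 HF-HI libraries above the sham median. Grm7 took 15.8% ± 0.969 and 16.2% ± 1.17, a difference within the SD of either group. The share of Grm8 was 2.33% ± 0.199 in sham and 2.93% ± 0.188 in HF-HI and did not overlap between the groups, although its own values did. A share also rises when the other genes of the sum fall, as Grm5, Grm3 and Grm7 did. Shares of this kind were not computed for other genes, and they treat the variance-stabilized values as log2 levels. The order also depends on exon length, which ran from 3049 bases for Grm3 to 10247 for Grm5.

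The genes of the receptors' signaling pathways, taken from 8 lists of 90 genes, were counted by direction. Of the 71 that were tested, 30 were higher, 13 lower and 28 not called, with a median difference of 0.073 against -0.0086 for all genes. Over all genes 32.6% were higher and 33.6% lower, and 66.3% were called in either direction, which is the background for the count of each list. After removal of the GC trend 24 were higher and 15 lower.

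Among the group I partners 4 of the 8 tested genes were higher and 2 lower, and 3 and 2 after removal of the GC trend. Homer1, the scaffold that ties group I receptors to Shank and to intracellular calcium stores, was -0.14 (limma adjusted p = 0.135) and was not called, with 12.43 to 13.09 in sham and 12.44 to 13.07 in HF-HI. It had -0.19 with centring (limma adjusted p = 0.0459) and -0.18 with quantile normalization (limma adjusted p = 0.0449), and a gene-level value cannot separate its short activity-induced form from the long ones. Homer2 was 0.069 (limma adjusted p = 0.156) and was called after removal of the GC trend, at 0.10 (limma adjusted p = 0.0353). The Shank genes, which hold Homer in the postsynaptic density, were all called higher, Shank3 by 1.07, Shank2 by 0.60 and Shank1 by 0.49. After removal of the GC trend Shank3 was still called at 0.72 and Shank2 at 0.42. Shank1 was then not called, at 0.17 (limma adjusted p = 0.271). Shank3 ran from 9.35 to 9.90 in sham and from 10.33 to 11.15 in HF-HI, without overlap, the opposite direction to Grm5 in the same libraries. Ncdn, whose product norbin binds the Grm5 receptor, rose by 0.24 and turned to -0.043 after removal of the GC trend (limma adjusted p = 0.262). Frmpd4, a scaffold that joins group I receptors to Homer, fell by 0.19, and Siah1a, a ubiquitin ligase that binds group I receptors, fell by 0.23. Both remained called after removal of the GC trend, at -0.15 for each.

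Among the 3 tested partners of group II and III receptors 1 was higher and 2 lower, and 1 and 1 after removal of the GC trend. Elfn2, a postsynaptic adhesion protein that binds group III receptors across the cleft, ran from 8.04 to 8.79 in sham and from 9.16 to 9.44 in HF-HI, without overlap. It rose by 0.79 (limma adjusted p = 7.99e-09), or 0.53 after removal of the GC trend, while its partner gene Grm7 fell and Grm8 rose. Ppm1a, a phosphatase that binds the tail of the Grm3 receptor, fell by 0.088 and was 0.0024 after removal of the GC trend, not called. Ppp1cc, a phosphatase subunit that binds the tail of the Grm7 receptor, fell by 0.16, and by 0.22 after removal of the GC trend.

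Downstream of group I, the list of Gq, phospholipase C and their effectors had 1 gene higher and 4 lower of 10. Its median was -0.017, and -0.062 after removal of the GC trend. The called genes were then 4 that were lower, but not the same 4. Dgkz, at 0.12 and not called before (limma adjusted p = 0.0693), was then called at -0.18 (limma adjusted p = 0.0126), and Plcb1 lost its call. Trpc1, a cation channel opened through group I receptors, ran from 9.44 to 9.63 in sham and from 9.05 to 9.27 in HF-HI, without overlap, and fell by 0.38 (limma adjusted p = 3.51e-09), close to the size of the Grm5 decrease. Plcb4, a phospholipase C, fell by 0.27, and Plcb1, another, fell by 0.15 and was -0.065 after removal of the GC trend (limma adjusted p = 0.118). Gna11, a Gq class alpha subunit, rose by 0.26 and was 0.052 after removal of the GC trend (limma adjusted p = 0.460).

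Genes for group I-dependent long-term depression, the weakening of synapses that these receptors can start, had 7 of 11 higher and 4 not called. After removal of the GC trend 6 were higher and 1 lower. The median was 0.14 before and 0.19 after that removal. Arc, which drives removal of AMPA receptors, ran from 8.69 to 10.31 in sham and from 10.77 to 11.83 in HF-HI, without overlap, and rose by 1.60 (limma adjusted p = 5.46e-08). Ptpn5, the phosphatase STEP, rose by 0.71, Cyfip2, a partner of the fragile X protein, by 0.48, and Eef2, a translation elongation factor, by 0.40, or 0.19 after removal of the GC trend. Of 4 endocannabinoid genes, which act after group I receptors through retrograde signals, 2 were higher and 1 lower, with a median of 0.28. The median was 0.18 after removal of the GC trend. Dagla, which makes 2-arachidonoylglycerol, rose by 0.75 (0.50 after removal of the GC trend) and Faah, which degrades anandamide, by 0.66, each without overlap between the groups. Cnr1, the CB1 receptor gene, fell by 0.19, and was -0.14 after removal of the GC trend (limma adjusted p = 0.0583). Mgll, the lipase that degrades 2-arachidonoylglycerol, was -0.10 (limma adjusted p = 0.0937) and was the gene called lower after that removal, at -0.27 (limma adjusted p = 9.35e-06).

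Downstream of groups II and III stood the list of Gi/o proteins, adenylyl cyclases and the channels they act on. It had 7 genes higher and 1 lower of 16, and 4 and 3 after removal of the GC trend. Its median was 0.13 before and 0.0086 after that removal. Gnao1, the Go alpha subunit, rose by 0.71, from a range of 11.27 to 11.64 in sham to one of 11.97 to 12.41 in HF-HI, without overlap. Kcnj9, a G protein-gated potassium channel, rose by 0.39, and Cacna1a, the pore of presynaptic P/Q-type calcium channels, by 0.35. After removal of the GC trend they were still called, at 0.19 and 0.16. Adcy6, an adenylyl cyclase, rose by 0.28 and was 0.085 after removal of the GC trend (limma adjusted p = 0.0568). The desensitization list had 4 genes higher and 2 lower of 10, and 3 and 2 after removal of the GC trend. Its median was 0.075 before and -0.0011 after that removal. Rgs7 rose by 0.55 and Rgs8 by 0.37, both of which speed the shutdown of Gi/o proteins. Grk2, a receptor kinase, rose by 0.26, and was 0.020 after removal of the GC trend, not called. Rgs4, which acts on Gq and Gi/o, fell by 0.18, and was -0.12 after removal of the GC trend (limma adjusted p = 0.0555).

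Genes that supply or clear the receptors' ligands had 4 higher and 1 lower of 9, and 5 and 1 after removal of the GC trend. Their median was 0.073 before and 0.11 after that removal. Slc17a7, the vesicular glutamate transporter VGLUT1, ran from 12.10 to 12.55 in sham and from 13.11 to 13.42 in HF-HI, without overlap, and rose by 0.89 (limma adjusted p = 8.88e-11). Slc38a1, a neuronal glutamine transporter, rose by 0.78, also without overlap. Glul, the glutamine synthetase of astrocytes, rose by 0.17, and Slc1a3, an astrocyte glutamate transporter, fell by 0.17.

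**Figure D4:**
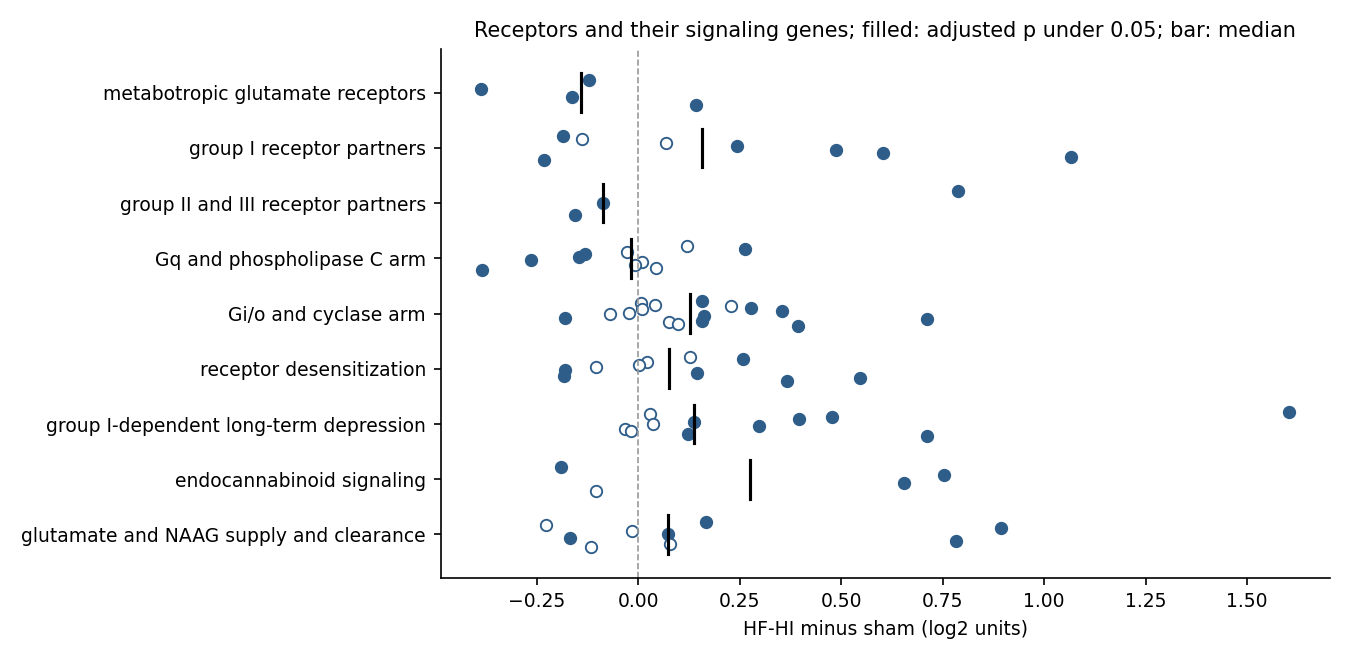
Difference between HF-HI and sham in log2 units (horizontal axis) for the tested genes of the receptor family and of the 8 pathway lists (vertical axis, 1 point per gene, moved vertically to keep points apart). Filled points have a limma adjusted p under 0.05, and the bar is the median of a list. Grm5 and Trpc1 are the lowest points, near -0.39 and -0.38, and Arc, at 1.60, and Shank3, at 1.07, the highest.

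Marker genes of the cells that carry these receptors were counted in the same libraries. Of 8 cortical excitatory neuron markers 5 were higher and 3 not called, and their summed level on the linear scale ran from 10303 to 12762 in sham and from 16016 to 19124 in HF-HI, opposite in direction to Grm5, Grm3 and Grm7. Slc17a7, which is also in the glutamate supply list, carried most of this rise, and the other 7 markers summed to 5617 to 6755 in sham and 6843 to 8164 in HF-HI, still without overlap. After removal of the GC trend 7 of the 8 were higher. Of 6 inhibitory neuron markers 3 were higher and 3 not called, and the counts were the same after removal of the GC trend. Their summed levels were 7467 to 9147 in sham and 7438 to 9779 in HF-HI. Gad1 and Gad2, neither of them called, had sham means of 12.12 and 11.03 on the log2 scale and weighed most in this sum. Of 11 markers of astrocytes, which are known to carry the Grm3 receptor, 4 were higher and 3 lower, with 71459 to 77916 in sham and 73209 to 80718 in HF-HI. Slc1a2, with a sham mean of 15.70 on the log2 scale, was the most abundant of these markers and weighed most in their sum. The astrocyte counts turned to 3 higher and 5 lower after removal of the GC trend. Oligodendrocyte markers had 2 of 9 higher and 7 not called, and 2 higher and 2 lower after removal of the GC trend. Precursor markers had 1 of 2 higher, and 1 lower after that removal. Microglia and endothelial markers each had 1 of 2 higher and 1 lower, and after removal of the GC trend 1 lower for microglia and the same counts for endothelium. Of these lists' defining genes Cx3cr1, P2ry12, Cldn5 and Pecam1 were not analysed here.

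For tissue next to cortex, striatal neuron markers had 1 of 8 higher and 1 lower, and 1 and 2 after removal of the GC trend. The striatum is rich in Grm5, and the summed level of these markers ran from 15406 to 20530 in sham and from 11098 to 23444 in HF-HI. Drd1, a dopamine receptor gene of striatal neurons, fell by 0.36 (limma adjusted p = 0.00694), and Foxp1, a transcription factor gene that cortical neurons also use, rose by 0.39 (limma adjusted p = 4.99e-06). Hippocampal granule cell markers had 1 of 2 higher and 1 not called, also after removal of the GC trend. Of the 2 thalamus markers limma called 0, 0 had an unadjusted p under 0.05, and the Wilcoxon rank-sum test called 0. The part of cell and tissue makeup in the receptor differences was not tested.

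Within groups, other genes followed each receptor from library to library. After subtraction of the group mean, over the 21 libraries, the genes with the highest Pearson's r with Grm5 were Arl14ep at 0.823, Mettl9 at 0.728 and Glud1 at 0.724. For Grm3 they were Myo9a at 0.844, Spcs3 at 0.842 and Tbl1xr1 at 0.835, and for Grm7 Zfp280d at 0.803, Atp1b2 at 0.788 and Pcdh15 at 0.768. After removal of the GC trend r was 0.780 for Arl14ep, 0.598 for Myo9a and 0.772 for Zfp280d. These genes were picked as the highest of all genes, and the libraries share their depth and GC slope, so no test was made. A gene alike within groups need not move alike between them, since Atp1b2 rose by 0.69 while Grm7 fell, and Pcdh15 differed by 0.021 (limma adjusted p = 0.754).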

How the data were processed

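Cortex libraries of 10 sham and 11 HF-HI mice were grouped by their labels. Libraries were stranded total RNA after removal of ribosomal RNA. The authors aligned reads to mm10 with STAR, counted them per transcript with eXpress, normalized with DESeq2 and removed low-count outliers by Cook's distance. The gene annotation and the versions of STAR and eXpress are not given in the sources used here. The deposited values are variance-stabilized log2 values; counts were not used here and no count model was fitted. On this scale differences of low genes are understated.

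Symbols, positions, exon lengths and GC content came from GENCODE on GRCm38, the assembly of mm10, and were found for 5539 of 5544 genes. The test was limma's moderated test (version 3.58.1, R 4.3.3, lmFit, eBayes with trend, two-sided, Benjamini-Hochberg over all 5544 genes, threshold 0.05). Percent changes were taken as if value differences were log2 ratios. GC trends were removed per library with a lowess curve of span 0.3, which also removes any biological difference that follows GC content. Relative depth came from the spacing of values between 500 and 600 on the linear scale. Python 3.11.15 was used for the rest, with pandas 2.3.3, matplotlib 3.10.9, numpy 2.4.6 and scipy 1.17.1. The fits were tested on simulated data, in which a GC trend between the groups added many false calls and its removal took them away. The simulated trend was linear and the same in every HF-HI library, with independent noise per gene. It therefore cannot show how completely the trends of the real libraries were removed.

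Some genes are not reported here and were left out of the lists. Members, lists and markers were chosen with earlier results of these data known. Named genes are the receptors, every tested receptor partner, up to 4 called genes of each pathway list by absolute difference, and the 3 genes most correlated with each member. Mgll, Dgkz, Gad1, Gad2, Slc1a2, Drd1, Foxp1, Cx3cr1, P2ry12, Cldn5 and Pecam1 were named after values were seen. Alternatives were an adjusted p of 0.1, a minimum difference of 0.25, eBayes without trend, the Wilcoxon rank-sum test, 2 scalings, the lowest quartile of genes left out, GC removal, the replicate number as a block, and each library left out. The depth covariate and the omission of HF-HI libraries 9 and 11 were added after the data were seen. The spread between mice sets the precision.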

Additional observations from a re-analysis of the deposited data

Results flagged for a closer look

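In 44 groups of 10 sham values, of the named genes and the receptor ratios, 4 had a sample far from the others by Dixon's criterion at the 95% level, where chance marks about 1 in 20. The highest sham log2 ratio of Grm5 to Grm7 was 1.92 in library 1, which had the highest Grm5 value and the lowest Grm7 value of its group, with a gap of 0.501 of the range. The lowest sham value of Ppm1a was 11.07, with a gap of 0.541 of the range. The lowest sham value of Rgs4 was 12.74, with a gap of 0.530 of the range. The lowest sham value of Glul was 14.06, with a gap of 0.470 of the range. The critical value used was that for 10 samples, and the 11 HF-HI libraries were not examined.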

How the results depend on the processing

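Grm5 remained called under 13 of 13 alternatives, from -0.44 to -0.30, and Grm7 under 12 of 13, from -0.21 to -0.10. The exception was the minimum difference of 0.25, which Grm7 (-0.16) and Grm3 (-0.12) do not reach. Grm3 remained called under 8 of 13. It lost its call with the depth covariate (-0.084, limma adjusted p = 0.124), with that covariate after GC removal (-0.085, limma adjusted p = 0.126) and with the replicate block, and the cause was not tested. The minimum of 0.25 left fewer genes by construction. It left 1 member in place of 3, 3 group I partners in place of 6, 1 group II and III partner in place of 3, 3 Gq genes in place of 5, 4 Gi/o genes in place of 8, 3 desensitization genes in place of 6 and 2 glutamate supply genes in place of 5.

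With the replicate block Grm3 was -0.12 (limma adjusted p = 0.0834), and -0.12 with the block after GC removal (limma adjusted p = 0.0821), where 3 Gq genes were called. The block left 2 members called, where 31.7% of all genes were lower. Same-numbered libraries correlated between -0.31 and 0.364 in their deviations from the group means, over 0.1 in 4 of 10 pairs, and 0 of 10 libraries correlated best with its own number, so the number was not taken as a pairing.

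With each library left out, Grm5 ran from -0.41 to -0.36, Grm7 from -0.18 to -0.15, Grm3 from -0.15 to -0.10, the ratio of Grm5 to the mean of Grm3 and Grm7 from -0.26 to -0.22, and the members called from 2 to 3. Grm8 could not be evaluated without the lowest quartile of genes, and alternatives for Grm2 were not run.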
